A study of Homo sapiens with 18 samples.

Results

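SREBF1 and ACOT11 are a pair of lipid metabolism genes whose RNA was lower when FTO was knocked down in UMRC2 cells. They are 2 of the 1242 genes in the authors' deposited RNA-seq table and were taken from it by gene name. The pair was chosen by its FPKM values, lower with shFTO#5 than with shControl, so the comparison of that hairpin with the control is given as a description, without a test. UMRC2 is an established line of human clear cell renal carcinoma without functional VHL, whose product directs hypoxia-inducible factors to the proteasome. All cells carried a short hairpin RNA: a control hairpin (shControl) or a hairpin against FTO (shFTO#2 or shFTO#5), with 2 RNA-seq libraries in each group. FTO takes the methyl group off N6-methyladenosine (m6A), a mark in messenger RNA. The labels give no clone, no time after hairpin delivery and no separate cultures for the replicates, so every error measures the spread between libraries, which may be technical. The series' design text numbers the hairpins differently from the sample titles, which were used here. The 12 m6A samples of the series (input and immunoprecipitate) were not used here.

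SREBF1 encodes the SREBP-1 transcription factors, which are made as membrane proteins of the endoplasmic reticulum, escorted to the Golgi by SCAP and cut there, so that the freed part enters the nucleus and turns on genes of fatty acid and triglyceride synthesis. INSIG proteins hold the precursor back when sterols are plentiful. ACOT11, also called THEM1, is a long-chain acyl-CoA thioesterase. It splits acyl-CoA, the activated form of fatty acids, into free fatty acid and coenzyme A, and carries a START domain, a lipid-binding fold. In mice it is known from brown fat, where it limits the burning of fatty acids. Clear cell renal carcinoma takes its name from cytoplasm that looks empty because stored lipid and glycogen wash out of sections.

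The members rest on ample reads. The totals that the FPKM values (fragments per kilobase of gene and of library size) had been scaled to ran from 14548533 to 18184675 reads per library. FTO, the target of both hairpins, was at 1.99 and 2.37 FPKM in shControl, 0.882 and 0.720 with shFTO#2, and 0.555 and 0.526 with shFTO#5. The knockdown libraries held 36.7% (shFTO#2) and 24.8% (shFTO#5) of the control mean, and the exact two-sided permutation p was 0.333 in both cases, the lowest possible with 2 libraries a group. In the authors' deposited table the FTO log2 changes were smaller, -0.90 with shFTO#2 and -1.28 with shFTO#5. Of 12 renal tubule and clear cell carcinoma markers, 6 were in the table (PAX2, PAX8, LRP2, CA9, KRT8 and KRT18), at 4.62 to 429 FPKM in shControl, 4 of them higher and 2 lower with shFTO#5. Presence in the table means that they were called as changed with that hairpin, as were 13.0% of the genes the authors tested. None of the 7 fibroblast and pericyte, 4 endothelial, 5 immune, 5 adipocyte and 4 hepatocyte markers was in it. A table of called genes shows only that these markers were not called, not that they were at 0.

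For each of the 2 genes 1 annotated start is shown, because both genes were lower with both hairpins. Each stretch holds 250 bases before and 50 after the RefSeq start, in GRCh38.p14, read along the gene. Capitals mark the GC box GGGCGG on either strand, to which Sp1-type factors bind, and the antioxidant response element core TGACNNNGC.
SREBF1, chr17:17836937-17837236, minus strand: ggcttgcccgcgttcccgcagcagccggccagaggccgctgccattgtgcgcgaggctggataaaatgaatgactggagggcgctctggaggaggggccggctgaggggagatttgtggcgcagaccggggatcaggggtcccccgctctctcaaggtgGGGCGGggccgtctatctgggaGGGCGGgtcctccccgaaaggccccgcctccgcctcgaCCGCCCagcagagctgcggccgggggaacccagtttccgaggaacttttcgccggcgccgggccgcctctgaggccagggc
ACOT11, chr1:54547978-54548277, plus strand: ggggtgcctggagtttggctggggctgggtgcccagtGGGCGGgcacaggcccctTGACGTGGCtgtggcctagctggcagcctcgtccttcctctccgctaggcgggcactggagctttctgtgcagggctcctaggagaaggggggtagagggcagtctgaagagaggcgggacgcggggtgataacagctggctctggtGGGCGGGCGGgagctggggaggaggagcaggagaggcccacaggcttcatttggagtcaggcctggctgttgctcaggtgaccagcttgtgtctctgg
The SREBF1 stretch had 3 GC boxes, 1 of them on the other strand, and was 71.0% G and C. The ACOT11 stretch also had 3, the last 2 overlapping each other, with 66.3% G and C. The RefSeq start of ACOT11 lies inside its GENCODE 29 gene model, at position 54548228, where the longest ACOT11 transcript begins, while a processed transcript begins upstream at 54542257. The SREBF1 stretch covers the start of the longest protein-coding transcript, at 17836987. Other SREBF1 transcripts begin downstream, a protein-coding one at 17823618 among them, and those starts were not searched. The median over 27305 RefSeq promoters of this length was 58.3%. A GC box stood in 44.6% of those promoters and in 74.6% of the 952 promoters that could be matched by symbol to a gene of the table. The ACOT11 stretch had 1 match to the antioxidant core, which 13.6% of all promoters hold, and SREBF1 had none. Neither stretch held the E-box CACGTG (7.43% of promoters), the CCAAT box (35.7%) or the AP-1 site TGANTCA (7.76%), searched on both strands. The 2 stretches therefore had the GC box in common among the motifs searched, as did most promoters of the table.

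SREBF1 (ENSG00000072310) spans positions 17810399 to 17837002 on the minus strand of chromosome 17 in hg38 and is protein coding. With the control hairpin it measured 41.8 FPKM (3535 reads) in replicate 1 and 43.8 FPKM (3313 reads) in replicate 2. With shFTO#5 it measured 35.9 FPKM (2433 reads) and 35.1 FPKM (2745 reads). Both shFTO#5 libraries lay below both control libraries, with a gap wider than the distance between replicates. The choice of the gene and its call favour such a gap, so it is no separate support. The group means were 42.8 ± 1.45 FPKM for shControl and 35.5 ± 0.594 for shFTO#5 (SD, n = 2 each). The knockdown mean was 83.0% of the control mean. On the log2(FPKM + 1) scale the difference was -0.26 ± 0.04 (SE, limma over all genes of the table). In the authors' deposited table the log2 change was -0.22, and the adjusted p by which the gene entered it was 0.0020361.

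ACOT11 (ENSG00000162390) spans positions 54542257 to 54639192 on the plus strand of chromosome 1 in hg38 and is protein coding. The control libraries measured 17.5 FPKM (2032 reads) and 17.9 FPKM (1852 reads). The shFTO#5 libraries measured 8.48 FPKM (786 reads) and 8.73 FPKM (935 reads). Both shFTO#5 libraries were low, as the choice of the gene fixes. The 95% exact Poisson intervals, which cover counting error only and not the wider spread between replicates, were 16.8 to 18.3 and 17.1 to 18.7 FPKM for the control libraries and 7.90 to 9.10 and 8.18 to 9.31 FPKM for the knockdown libraries. The means were 17.7 ± 0.249 and 8.61 ± 0.178 FPKM (SD, n = 2 each), a 2.06-fold lower level with 48.6% left. The log2(FPKM + 1) difference was -0.96 ± 0.06 (SE). In the authors' deposited table the log2 change was -0.92 (adjusted p = 6.4082e-31). In bulk RNA, fewer cells expressing a gene and less RNA per cell cannot be told apart.

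The 2 genes sat at different depths of the list. By the log2(FPKM + 1) difference with shFTO#5, the contrast by which the pair was chosen, ACOT11 ranked 2 from the largest fall and SREBF1 372. FTO ranked 1, but the added 1 shrinks its difference more, since its shControl mean was 2.18 FPKM. In FPKM, FTO was 4.04-fold lower and ACOT11 2.06-fold. Over all 1242 genes the median difference was 0.15, and 461 genes were lower. The authors' test, by the arithmetic of its p-values and adjusted p-values, had covered 9551 genes in the shFTO#5 comparison. It called 13.0% of them in either direction, 4.83% as lower and 8.18% as higher. Both members are among these by the way they were chosen.

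**Figure D1:**
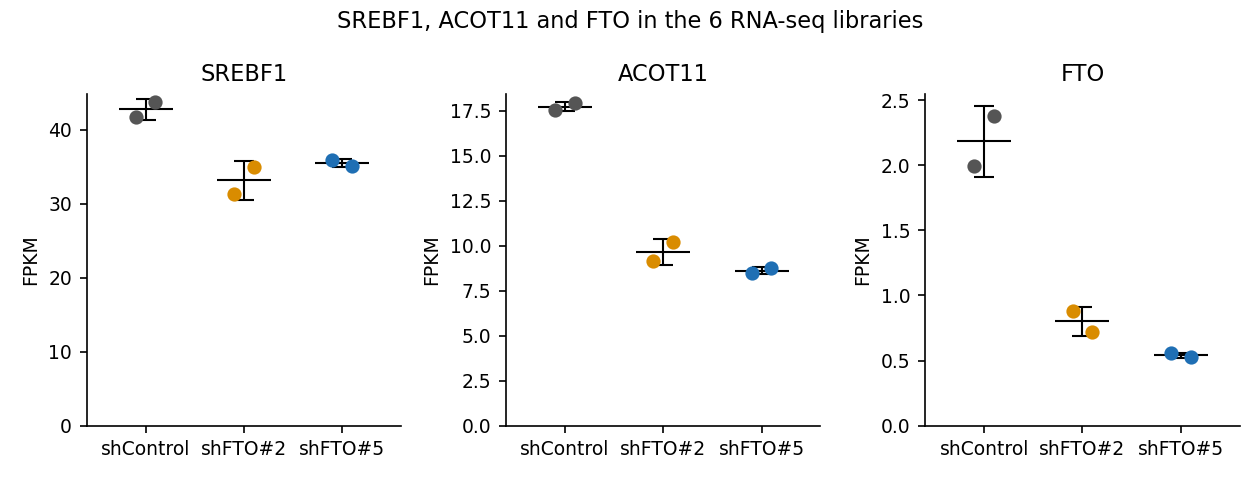
Expression of SREBF1, ACOT11 and FTO in FPKM (linear axes from 0) in shControl, shFTO#2 and shFTO#5 libraries. Points are libraries, horizontal bars are means and error bars are SD (n = 2 per group). Every knockdown library lies below both control libraries in all 3 genes, of which SREBF1 and ACOT11 were chosen as lower with shFTO#5. In shFTO#5, ACOT11 is near 8.61 FPKM and SREBF1 near 35.5 FPKM.

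The shFTO#2 values needed a further step before they could be read. They fill 766 lines of the table in an order of their own, and only 4 of the first library's values and 6 of the second's were whole reads with the length of the gene on the same line. Each value was therefore given to the listed gene whose length made it a whole number of reads, kept the gene order and matched the direction and approximate size of the authors' fold change. This placed 561 values from the first library alone, and all 561 were also whole reads in the second. For ACOT11 a single value was whole with its length in both libraries, and no other listed gene fitted that value. For SREBF1 a single value was whole as well, but the lengths of 8 listed genes, SREBF1 included, fitted it. Of these 8, SREBF1 was the only one that met the size and direction criteria, and it lay between the placed values of TFRC and STK10, as gene order requires. Only the lengths of listed genes were tried, so whether a gene outside the table also fits a value could not be checked. For FTO, 2 values were whole with its length and 1 met all criteria, and the log2 ratio of its FPKM means was -1.45 against -0.90 in the authors' deposited table.

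With shFTO#2, SREBF1 was at 31.3 and 35.0 FPKM, 2541 reads in each library. Both values lay below both controls, but the replicates were farther apart than in the other groups. The mean of 33.2 ± 2.65 FPKM (SD, n = 2) was 77.5% of control, a log2(FPKM + 1) difference of -0.36 ± 0.05 (SE). ACOT11 was at 9.14 and 10.2 FPKM, from 1016 and 1010 reads, again with a wide gap to the controls. Its mean of 9.66 ± 0.730 FPKM was 54.5% of control, a difference of -0.81 ± 0.06 (SE). From the largest fall among the 561 placed genes, ACOT11 ranked 7 and SREBF1 93. In the authors' deposited table the shFTO#2 log2 changes of these entries were -0.32 for SREBF1 (adjusted p = 4.6371e-05) and -0.76 for ACOT11 (adjusted p = 4.5427e-20), where 7.63% of 10038 genes tested were called, 3.46% lower and 4.17% higher. Both hairpins were set against the same 2 control libraries, and the placing used the direction of the change, so the shFTO#2 values are no independent support for the shFTO#5 ones.

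The order of levels was shControl, shFTO#5, shFTO#2 for SREBF1 and shControl, shFTO#2, shFTO#5 for ACOT11. The hairpins were compared directly, without the control libraries in the contrast, by limma over the 561 placed genes. The shFTO#5 values by which the pair was chosen are 1 side of this contrast. The placing used the direction and approximate size of the shFTO#2 change, so the p-values below are not free of the choice. SREBF1 differed by -0.10 (shFTO#2 minus shFTO#5, 95% interval -0.22 to 0.03) with an adjusted p of 0.290, and ACOT11 by 0.15 (0.02 to 0.28) with an adjusted p of 0.127 by the same limma test. Neither passed the threshold of 0.05, against 13.7% of placed genes that did. A miss does not show that the hairpins acted alike on these genes. It also turned on single libraries: without shFTO#2 replicate 2 the SREBF1 difference was -0.18 (limma adjusted p = 0.0452), and without shFTO#2 replicate 1 the ACOT11 difference was 0.22 (limma adjusted p = 0.0384). With each library centred on its median the SREBF1 difference was -0.14 (limma adjusted p = 0.0409). FTO itself was at 0.801 ± 0.114 FPKM with shFTO#2 and 0.540 ± 0.0205 FPKM with shFTO#5 (SD, n = 2).

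The gene models bear on the levels. The length used for ACOT11, 6369 bases, equals that of its longest GENCODE 29 transcript, which shares 0 exonic bases with FAM151A, a gene on the opposite strand within the ACOT11 locus. A shorter coding transcript of ACOT11 overlaps FAM151A exons over 760 bases. The length used for SREBF1, 4653 bases, equals that of its longest annotated transcript, which is classed as a target of nonsense-mediated decay and begins at 17820864, downstream of the start shown, while the longest protein-coding transcript has 4253 bases. All SREBF1 transcripts together share 556 exonic bases with RAI1 on the opposite strand. No source used here says whether the counting used strand, so reads from overlapping exons of opposite genes cannot be told apart. Neither RAI1 nor FAM151A was among the genes of the table. The pentamer GGACT, a common form of the m6A consensus, occurred 3 times in the longest coding transcript of each gene. That is 0.705 per kilobase in SREBF1 and 0.471 in ACOT11, below the median of 0.939 over 1222 listed genes with a coding transcript. The presence of these letters says nothing about methylation.

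SREBF1 is also the host of 2 annotated microRNAs on its own strand, MIR33B and MIR6777 (17813480 to 17813545), both with 0 bases in SREBF1 exons. MIR33B is shown because its product is known to act on lipid genes. MIR33B lies at 17813836 to 17813931 on chromosome 17, in an intron. Its mature forms, from RefSeq with the seed (bases 2 to 8) in capitals, are
hsa-miR-33b-5p: gUGCAUUGcuguugcauugc
hsa-miR-33b-3p: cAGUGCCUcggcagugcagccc
miR-33b is known to repress ABCA1, the cholesterol efflux pump, which was not among the genes of the table. Small RNAs were not measured in these libraries, so the lower SREBF1 level is known for the spliced host transcript only.

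Around these 2 genes, 11 lists of lipid genes were drawn up, 275 genes in all. Of these, 32 (11.6%) were in the table, 15 higher and 17 lower with shFTO#5, with a median log2(FPKM + 1) difference of -0.19. The share of the lists found in the table was near the 13.0% of tested genes that were called, though how many of the 275 had been tested is not known. The lists contain SREBF1 and ACOT11 themselves. Without them 15 of 30 were higher. Among all 1242 listed genes, 781 were higher. Of the genes tested, 4.83% were called lower and 8.18% higher. The single lists below held 1 to 6 listed genes each, too few to read a direction for a list.

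Of the 15 genes of the SREBP system itself, SREBF1 was the only one in the table (6.67%, against 13.0% of tested genes called). Its partners SCAP, INSIG1 and INSIG2 and the paralogue SREBF2 were not among the called genes. Of 24 genes of fatty acid synthesis and desaturation, 3 were listed (12.5%). SCD, the stearoyl-CoA desaturase that makes oleate, was at 43.4 and 43.2 FPKM in shControl. It was at 32.6 and 31.7 with shFTO#5 and 31.5 and 31.7 with shFTO#2. The log2(FPKM + 1) differences were -0.42 ± 0.04 with shFTO#5 and -0.44 ± 0.04 with shFTO#2 (SE). Other genes of the list went the opposite way: ELOVL1, an elongase of very long chains, was higher (0.19 ± 0.03 with shFTO#5 and 0.16 ± 0.03 with shFTO#2), as was ACLY, which makes cytosolic acetyl-CoA from citrate (0.11 ± 0.03 with shFTO#5). FASN and ACACA, the core synthesis enzymes, were not among the called genes.

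Of 24 genes of synthesis and uptake, 3 were listed, 2 higher and 1 lower with shFTO#5, or 1 higher and 2 lower when libraries were centred on their medians. DHCR7, which catalyses the last step of cholesterol synthesis and was lower on either scale, went from 42.1 and 42.8 FPKM to 32.4 and 35.2 with shFTO#5 and to 35.4 and 34.9 with shFTO#2. The log2(FPKM + 1) differences were -0.32 ± 0.05 with shFTO#5 and -0.27 ± 0.04 with shFTO#2 (SE).

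ACOT11 was the only one of 14 acyl-CoA thioesterases (7.14%) in the table, and the only one of 16 proteins with a START domain (6.25%). The share of all tested genes called was 13.0%. On the other side of the acyl-CoA pool, ACSL1, a long-chain acyl-CoA synthetase, was the only one of 30 synthetase and fatty acid transport genes listed (3.33%). It went from 10.8 and 10.1 FPKM to 13.2 and 13.3 with shFTO#5 (0.32 ± 0.06, SE). The thioesterase was thus lower and the synthetase higher in the same libraries.

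Of 40 genes placed in the fatty acid oxidation list, 5 were listed (12.5%), near the 13.0% of tested genes called. Of the 5, 4 were lower. EHHADH, the bifunctional enzyme of peroxisomal oxidation, was at 12.6 and 11.8 FPKM in shControl and 9.11 and 9.43 with shFTO#5 (-0.36 ± 0.06, SE). DECR2, a peroxisomal reductase for unsaturated chains, had -0.36 ± 0.06, and ECI1, a mitochondrial isomerase for such chains, -0.27 ± 0.03. CYP4F11, a fatty acid hydroxylase, was at 30.004 and 30.6 FPKM in shControl, 23.8 and 22.4 with shFTO#5 and 18.0 and 17.6 with shFTO#2. Its log2(FPKM + 1) differences were -0.38 ± 0.05 with shFTO#5 and -0.74 ± 0.04 with shFTO#2 (SE). PPARG, a nuclear receptor for fatty acids that the list also holds, was the 1 higher member, going from 40.3 and 39.1 FPKM to 49.8 and 51.5 (0.34 ± 0.04, SE).

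Of 24 lipid droplet and lipolysis genes 6 were listed, 5 of them higher. SOAT1, which esterifies cholesterol for storage, had 8.58 and 9.30 FPKM in shControl, 14.7 and 14.6 with shFTO#5 and 12.7 and 12.5 with shFTO#2. Its log2(FPKM + 1) difference with shFTO#5, 0.66 ± 0.06 (SE), was the highest of the lipid genes named here. The droplet coat protein PLIN2 was the most abundant per length, at 224 and 223 FPKM in shControl and 262 and 263 with shFTO#5 (0.23 ± 0.03, SE). PLIN3, a coat protein that moves between cytosol and droplets, had 0.34 ± 0.05, and AUP1, a droplet protein, 0.20 ± 0.04. PLIN4 was the lower member, at -0.32 ± 0.06.

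Of 34 genes of glycerolipid and phospholipid synthesis 4 were listed (11.8%), 3 higher and 1 lower. LPIN1, a phosphatidate phosphatase on the way to triglyceride, had 0.44 ± 0.06 (log2(FPKM + 1) difference with shFTO#5, SE), PTDSS1, a phosphatidylserine synthase, 0.40 ± 0.04, and LPCAT1, a lysophosphatidylcholine acyltransferase, 0.29 ± 0.04. PCYT2, which controls phosphatidylethanolamine synthesis, went the other way, from 14.7 and 15.2 FPKM to 10.0 and 9.94 with shFTO#5 and 10.4 and 11.4 with shFTO#2 (-0.54 ± 0.06 and -0.42 ± 0.05, SE).

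Of 28 sterol and lipoprotein handling genes 6 were listed (21.4%, against 13.0% of tested genes called), 5 of them lower with shFTO#5. They were LRP2, the megalin receptor of the renal tubule (-0.58 ± 0.07, SE), LRP1, an endocytic receptor (-0.30 ± 0.06), VLDLR, the very-low-density lipoprotein receptor (-0.26 ± 0.05), OSBPL8, a lipid transfer protein (-0.24 ± 0.05), and SCARB1, the high-density lipoprotein receptor (-0.18 ± 0.04). NPC1, which exports cholesterol from lysosomes, was higher (0.25 ± 0.05). Both listed sphingolipid genes of 29 (6.90%) were lower: ASAH1, the acid ceramidase (-0.39 ± 0.04), and UGCG, the glucosylceramide synthase (-0.20 ± 0.04).

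**Figure D2:**
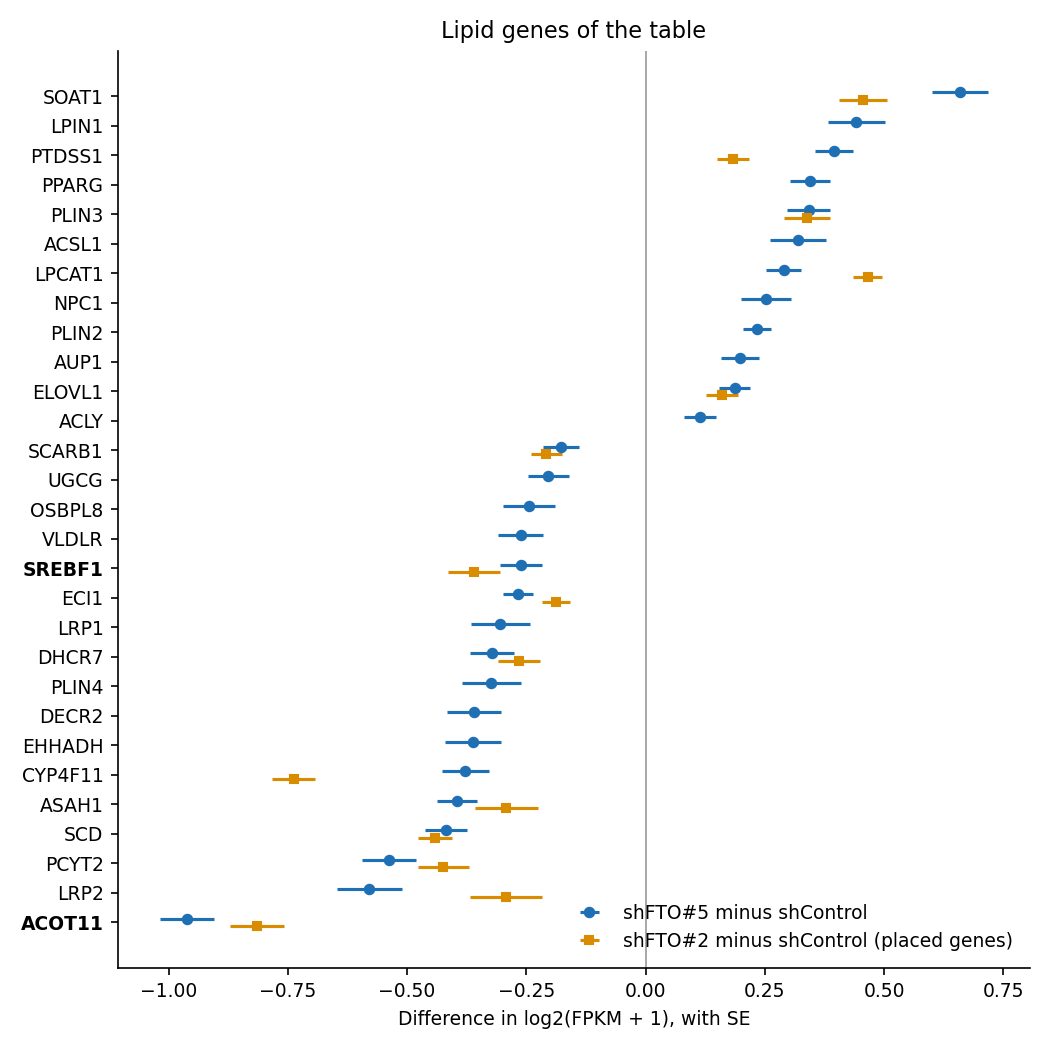
Difference in log2(FPKM + 1) from shControl for the lipid genes named in the text (chosen by their absolute difference with shFTO#5), with SE from limma, for shFTO#5 (circles) and, where values could be placed, shFTO#2 (squares). ACOT11 is lowest at -0.96 and SOAT1 highest at 0.66, and SREBF1 at -0.26 lies among the smaller falls.

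Values for shFTO#2 could be placed for 16 of the 32 lipid genes, 6 of them higher and 10 lower. Among all 561 placed genes, 353 were higher and 208 lower. The shFTO#2 values cover the 766 genes called with that hairpin. A lipid gene without a value was therefore either not called with shFTO#2 or called but not placed. Centring each library on its median lowered all differences by 0.09 with shFTO#5 and 0.15 with shFTO#2, and left SREBF1 at -0.35 and -0.51 and ACOT11 at -1.05 and -0.96. No lipid gene named here changed direction under centring or quantile normalization.

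The genes most like each member were found by the Euclidean distance of their log2(FPKM + 1) values, set to 0 at the shControl mean, over the 4 shControl and shFTO#5 libraries. With 2 groups of 2, this measure mostly ranks genes by the size of the difference. Nearest to SREBF1 were GOLIM4, a Golgi membrane protein (distance 0.016), MLLT6, a chromatin-associated protein (0.018), ECI1 (0.020), RAP2B, a small GTPase (0.028), and REPIN1, a zinc finger protein (0.029). All 5 had differences between -0.27 and -0.25. Nearest to ACOT11 were FTO (0.16), SDC2, a syndecan (0.21), JUND, a subunit of AP-1 (0.27), CYS1, a protein of renal cilia (0.28), and the receptor kinase ERBB3 (0.30). These distances were larger because few genes were as low as ACOT11, as the plot of change against level shows. The added 1 brings FTO near: in FPKM it was 4.04-fold lower and ACOT11 2.06-fold.

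**Figure D3:**
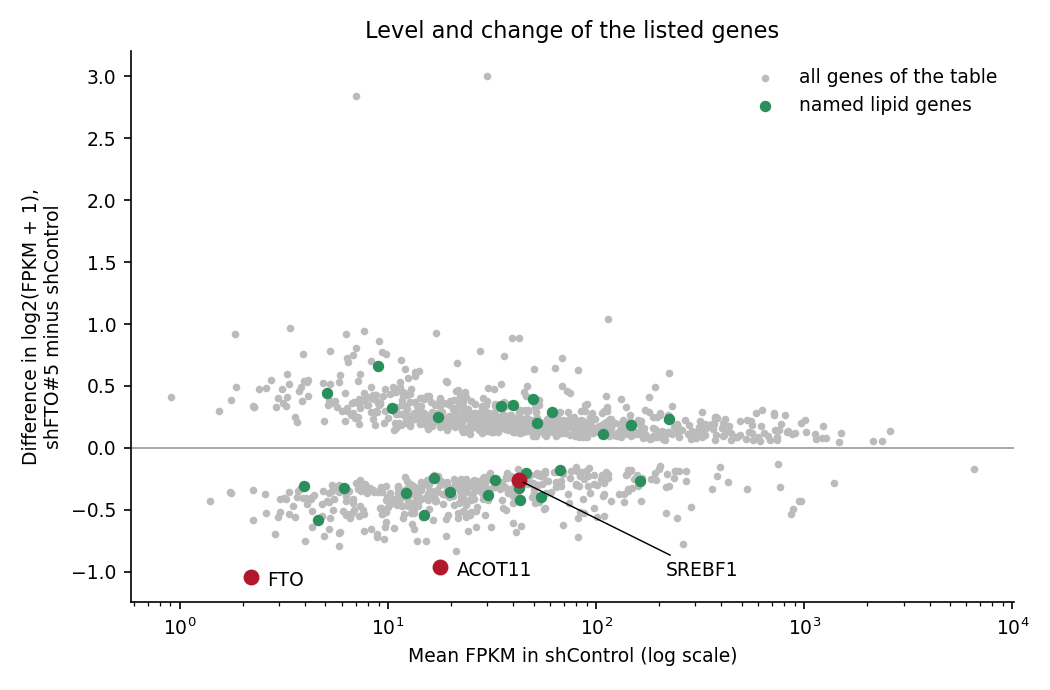
Each point is 1 of the 1242 genes of the table, with its mean FPKM in shControl on a log axis and its difference in log2(FPKM + 1), shFTO#5 minus shControl, on the vertical axis. Green points are the named lipid genes and red points are SREBF1, ACOT11 and FTO. ACOT11 lies at the lower edge, at a height near that of FTO, whose difference the added 1 shrinks more. SREBF1 lies within the band of lower genes. The empty band at 0 reflects that only called genes are in the table.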

How the data were processed

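The 6 RNA-seq libraries were grouped by their sample titles. Trim Galore 0.4.2, STAR, RSEM and hg38 appear in the submitters' processing notes without role or order, and no source used here names the differential test. The authors deposited FPKM per library, named as such in the file headers, for genes called with shFTO#5. The log2 fold changes were deposited by the authors. Their sign, control over knockdown by the FPKM means of all 1242 genes, was reversed here. Each gene's p-value and adjusted p-value were deposited too, with an adjusted p under 0.05 in every line.

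Whole reads and library totals were recovered from FPKM times gene length (tolerance 1e-05), and all 1242 values of each shControl and shFTO#5 library were whole. The shFTO#2 values were placed by whole reads, gene order and fold change (log2 distance under 0.15 or under the size of the fold change), and 205 of 766 were left out. Replicate counts differed beyond sampling noise (chi-square over its degrees of freedom, 2.56 to 4.57), so none was treated as a repeat deposit of another. Library preparation alone can give such values, and they do not show separate cultures. Limma 3.58.1 (R 4.3.3) with an intensity trend was run on log2(FPKM + 1). A minimum of 1 FPKM in 2 libraries removed no gene. The fit held shControl and shFTO#5 on 1242 genes, and all 3 groups on the 561 placed genes. It gave standard errors and, for the hairpins against each other, Benjamini-Hochberg adjusted p-values. Since it saw called genes only, its estimate of spread rests on genes selected as different. Limma and the placing were also run on simulated data, with outcomes not given here. The counts simulated for the placing held Poisson noise only, less than the spread between these replicates. Alternatives were the pseudocount (0.1 and 5), no filter, centring, quantile normalization, a replicate block and leaving out each library. Coordinates come from GENCODE 29 and promoters and microRNAs from RefSeq (GRCh38.p14). The members, lists and tests were chosen with earlier results of these data known. The named genes are SREBF1, ACOT11, FTO, the 30 listed lipid genes with the largest absolute difference, and the 5 genes nearest to each member, and some of the genes this rule names are not reported here.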

Additional observations from a re-analysis of the deposited data

Results flagged for a closer look

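Neither SREBF1 nor ACOT11 differed between the hairpins past the threshold, but 6 of the other genes named here did. The test was limma over the 561 placed genes, of which 13.7% passed. The named genes were mostly chosen by their shFTO#5 values, which enter this contrast, so their count cannot be set against that share. Each value is shFTO#2 minus shFTO#5 in log2(FPKM + 1). CYP4F11 was lower with shFTO#2 (-0.36 ± 0.04, SE, limma adjusted p = 0.00386), as were PTDSS1 (-0.21 ± 0.03, adjusted p = 0.00865) and SOAT1 (-0.20 ± 0.05, adjusted p = 0.0353). LPCAT1 was higher with shFTO#2 than with shFTO#5 (0.18 ± 0.03, limma adjusted p = 0.0105), as were ERBB3 (0.25 ± 0.04, adjusted p = 0.0104) and LRP2 (0.29 ± 0.08, adjusted p = 0.0446). For LPCAT1 and CYP4F11 the difference from shControl was larger with shFTO#2, and for the other 4 it was larger with shFTO#5. The residual FTO was 0.801 ± 0.114 FPKM with shFTO#2 and 0.540 ± 0.0205 with shFTO#5 (SD, n = 2), and its part in these differences was not tested.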

How the results depend on the processing

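SREBF1 and ACOT11 stayed below shControl with both hairpins under every alternative run, and no value reversed. The choice of the pair favours this direction with shFTO#5. The placing, which was not rerun, required the direction of the deposited change with shFTO#2. The unchanged direction is therefore no separate support. For SREBF1 with shFTO#5 (-0.26) the values that moved by more than the replicate SD were -0.35 with centring and -0.34 with quantile normalization, and with shFTO#2 (-0.36) it was -0.51 with centring. For ACOT11 with shFTO#5 (-0.96) they were -1.03 and -0.74 with pseudocounts of 0.1 and 5, -1.05 with centring and -0.93 with quantile normalization. With shFTO#2 (-0.81) they were -0.63 with a pseudocount of 5, -0.96 with centring and -0.89 with quantile normalization. The pseudocount acts on ACOT11 by construction. Centring moves every gene by the same amount, -0.09 with shFTO#5 and -0.15 with shFTO#2, the shift of the library medians. The cause of the shifts with quantile normalization was not tested. Leaving out 1 library gave ranges of -0.30 to -0.23 and -0.44 to -0.28 for SREBF1 with shFTO#5 and shFTO#2, and of -0.98 to -0.94 and -0.88 to -0.74 for ACOT11. A group left with 1 library was assumed to vary like the others. The hairpin difference ranged from -0.18 to -0.019 for SREBF1 and from 0.078 to 0.22 for ACOT11. It passed without shFTO#2 replicate 2 for SREBF1 (-0.18) and without shFTO#2 replicate 1 for ACOT11 (0.22), and for SREBF1 with centring (-0.14). The FTO level left, an alternative added after the data were seen, ranged from 22.8% to 27.1% with shFTO#5 and from 33.0% to 40.4% with shFTO#2. Of the 32 lipid genes, 14 were higher with centring and 15 under the other alternatives.

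With the replicate block the hairpin difference was unchanged in size (-0.10 for SREBF1, limma adjusted p = 0.180, and 0.15 for ACOT11, 0.0764), and the block changed no call. Same-numbered libraries share only a number: the deviations of replicate 1 from its group mean correlated across genes at 0.09 between shControl and shFTO#5, 0.22 between shControl and shFTO#2 and 0.12 between the hairpins. Depth did not limit the members, which had at least 786 reads in every library.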

Other observations

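Some neighbours of the 2 genes were in the table, which holds the 13.0% of tested genes that were called. How many of the annotated neighbours were tested is not known, so their number is not read as a result. Within 500000 bases of ACOT11, where 19 other protein-coding genes are annotated, SSBP3, a single-stranded DNA binding protein 128778 bases away, was lower with shFTO#5 (log2(FPKM + 1) difference -0.42 ± 0.06, SE), and USP24, a ubiquitin protease, had 0.18 ± 0.06. Within the same distance of SREBF1, where 18 are annotated, FLII, an actin-binding protein, was listed at 0.09 ± 0.03. These genes are named for their position, after their values were seen.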
